A study of Mus musculus with 2 samples.

Results

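Laminins, nidogens and perlecan are the glycoproteins and the proteoglycan that, with collagen IV, build basement membranes. The 10 genes described here are Lama1, Lama2, Lama4 and Lama5, which encode laminin alpha chains, Lamb1 and Lamb2 for beta chains, Lamc1 for the gamma1 chain, Nid1 and Nid2 for the nidogens, and Hspg2 for perlecan. They were chosen by name, and each matched 1 of 55536 annotated genes. The samples were adrenal glands of female B6CASTF1/J mice, an F1 hybrid strain, at 25 days of age, from which total RNA was sequenced. Libraries of replicate 1 and replicate 2 form 1 group, and the labels name no treatment. The labels number the libraries as biological replicates 1 and 2. They do not settle whether the libraries come from different mice. The tissue entries number the animals differently but share 1 donor entry and 1 library note. Each SD is thus a spread between 2 libraries that may be technical.

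A laminin is a trimer of 1 alpha, 1 beta and 1 gamma chain, joined along a coiled coil inside the cell and then secreted. Laminins assemble into a sheet on cell surfaces, where integrins and dystroglycan bind the end of the alpha chain. Nidogens link the gamma1 chain to collagen IV, and perlecan adds heparan sulfate chains that bind growth factors. In the adrenal gland, basement membranes surround the cords of steroid-making cells, the chromaffin cells, the sinusoidal capillaries and the Schwann cells of the nerves. In a whole gland, fewer cells of a type and less RNA per cell cannot be told apart.

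Replicate 1 held 19366343 expected counts (estimated reads per gene) and replicate 2 held 33728646. Genes that code for protein, leaving out mitochondrial genes and Lars2, held 36.3% and 66.1% of them, and summed to 206815 and 338304 TPM. TPM is a transcript abundance divided by length, so genes can be set side by side, but the coding genes sum to less in replicate 1 on this scale. Ratios between the libraries were therefore taken from counts scaled by TMM, as log2 of replicate 1 over replicate 2. Markers of the labelled tissue were present: all 6 cortex markers and all 7 medulla markers were at 1 TPM or more in both libraries. The libraries stood apart in liver transcripts, which summed over 7 genes to 204 TPM in replicate 1 and 3.82 TPM in replicate 2.

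The most abundant member, Hspg2, has a pair of near full-length coding transcripts, Hspg2-201 of 14187 bases and Hspg2-203 of 14176 bases, each with 97 exons. They are shown here because they took almost equal parts of the gene. Within the transcript they differ at 2 exon junctions. At the first junction (chr4:137540106-137540213, mm10, plus strand), Hspg2-203 holds 18 bases that Hspg2-201 lacks. At the second (chr4:137548490-137549538), Hspg2-201 holds 6 bases and Hspg2-203 holds 12 others. Each inserted stretch is a multiple of a codon in length. Capitals mark the inserted bases, between 15 bases of shared exon on either side, from the GENCODE M21 transcripts.
Hspg2-201, first junction: tggtcgtcctctcagtgccagtcaggatag
Hspg2-203, first junction: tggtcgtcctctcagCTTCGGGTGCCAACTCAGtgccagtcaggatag
Hspg2-201, second junction: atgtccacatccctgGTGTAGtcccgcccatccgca
Hspg2-203, second junction: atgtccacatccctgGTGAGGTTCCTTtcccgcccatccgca
Hspg2-201 held 36.4% of Hspg2 TPM in replicate 1 and 42.5% in replicate 2, and Hspg2-203 held 41.2% and 42.1%. A second deposited transcript table, called the second quantification here, gave Hspg2-201 56.2% and 52.2% and Hspg2-203 43.8% and 47.8%. Both forms were therefore estimated at like levels in each library and each quantification. Reads that do not touch these junctions or the transcript ends fit both forms.

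RefSeq promoters (GRCm38.p6) were available for 6 of the 10 members, each a window of 300 bases around the transcript start. They were searched on both strands for GGGCGG, the GC box bound by Sp1-type factors, and for TATAAA, the TATA box. The GC box was found in 5 of 6 and the TATA box in 0 of 6, against 35.7% and 13.6% of all 32851 promoters in the table. Lamb1 and Lamb2 are shown because they encode the beta chains and their starts differ in composition, and Hspg2 because it was the most abundant member. Capitals mark the GC box on either strand.
Lamb1, chr12:31265043-31265342, plus strand: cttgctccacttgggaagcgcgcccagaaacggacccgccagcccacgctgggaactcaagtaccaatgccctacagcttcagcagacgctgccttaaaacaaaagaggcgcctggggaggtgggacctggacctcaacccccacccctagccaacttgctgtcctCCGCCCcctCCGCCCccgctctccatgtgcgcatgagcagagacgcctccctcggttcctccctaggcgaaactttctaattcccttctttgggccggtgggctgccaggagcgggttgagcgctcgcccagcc
Lamb2, chr9:108479612-108479911, plus strand: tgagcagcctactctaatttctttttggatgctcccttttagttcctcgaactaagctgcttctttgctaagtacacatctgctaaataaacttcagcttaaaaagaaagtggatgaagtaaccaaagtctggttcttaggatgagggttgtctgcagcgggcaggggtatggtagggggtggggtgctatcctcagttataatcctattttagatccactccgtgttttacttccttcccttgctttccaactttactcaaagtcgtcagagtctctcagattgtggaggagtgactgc
Hspg2, chr4:137468553-137468852, plus strand: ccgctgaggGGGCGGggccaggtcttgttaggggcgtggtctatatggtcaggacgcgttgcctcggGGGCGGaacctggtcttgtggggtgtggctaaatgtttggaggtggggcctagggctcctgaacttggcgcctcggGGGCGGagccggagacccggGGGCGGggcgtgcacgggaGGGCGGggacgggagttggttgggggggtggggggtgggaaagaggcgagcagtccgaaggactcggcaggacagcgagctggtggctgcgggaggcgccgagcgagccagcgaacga
The Hspg2 window held 5 GC boxes and 27 CpG dinucleotides, with a GC content of 70.3%. The Lamb1 window held 2 GC boxes and 18 CpG at 63.7% GC, while the Lamb2 window held 0 GC boxes and 4 CpG at 44.0% GC. The median over all promoters was 7 CpG and 52.7% GC. A match is a description of the letters and not evidence of binding.

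All 10 members were at or above 1 TPM in both libraries, against 51.5% of the 22028 protein-coding genes. The middle of their levels was a median of 14.6 TPM (replicate 1) and 26.35 TPM (replicate 2). By mean TPM the order was Hspg2, Lamb1, Lamb2, Lamc1, Lama4, Nid1, Lama5, Nid2, Lama2 and Lama1. Of the 9 neighbouring pairs, 7 had ranges that overlapped between the genes, and 6 kept their order in both libraries. On coding TPM, where TPM is rescaled so that the coding genes counted above sum to the same total in each library, 3 of the 9 pairs overlapped. By gene TPM the pairs whose ranges did not overlap were Nid1 with Lama5, 2.04 times apart in replicate 1 and 2.51 times in replicate 2, and Lama2 with Lama1, 1.37 and 1.509 times apart. The step from Nid1 to Lama5 was also free of overlap on full-length transcripts and in the second quantification, and the step from Lama2 to Lama1 was not. The pairs that changed order were Lamb1 with Lamb2, Lama4 with Nid1, and Nid2 with Lama2. Among 11352 protein-coding genes at 1 TPM or more in both libraries, Hspg2 ranked 883 in replicate 1 and 1063 in replicate 2, and Lama1 ranked 8001 and 9248.

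**Figure D1:**
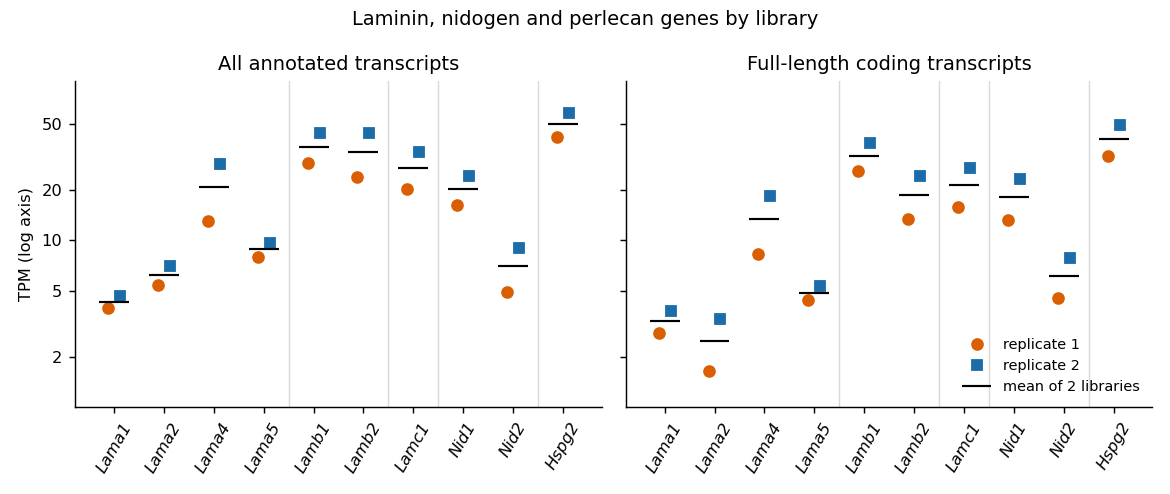
TPM of each gene on a log axis in replicate 1 (circles) and replicate 2 (squares), with the mean of the 2 libraries as a bar, over all annotated transcripts (left) and over full-length coding transcripts (right). Hspg2 is highest on both sides, at 41.5 and 58.3 TPM on the left, and each gene lies lower in replicate 1.

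Gene levels in these tables include short annotated transcripts, and this changed the picture for several members. A coding transcript of at least 80% of the length of the gene's longest coding transcript is called full-length here, a rule chosen after the values were seen. For Lama5, full-length transcripts took 96.6% of the counts in replicate 1 and 96.3% in replicate 2, but 54.8% and 55.5% of the TPM. The rest of its TPM lay on 3 processed transcripts of 451 to 734 bases, which shared 28.4 and 73.8 counts. This part depended on the quantification, as the second gave full-length Lama5 transcripts 90.1% and 100% of TPM. Because TPM divides by length, few reads on a short transcript add much to the gene's TPM.

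The same held in part for Lamb2, where full-length Lamb2-201 held 92.9% and 94.7% of counts but 55.9% and 55.1% of TPM. Over the 10 genes, full-length transcripts held a median of 96.1% of counts in replicate 1 and 95.7% in replicate 2, and 73.9% and 80.6% of TPM. Lama2 was the lowest by counts, at 64.5% and 79.2%. Its shorter coding transcripts held 29.0% and 11.4% of its counts, and in the second quantification 19.4% and 5.51% of its TPM. Transcripts with a retained intron held 9.80% and 9.15% of Lama4 counts.

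**Figure D2:**
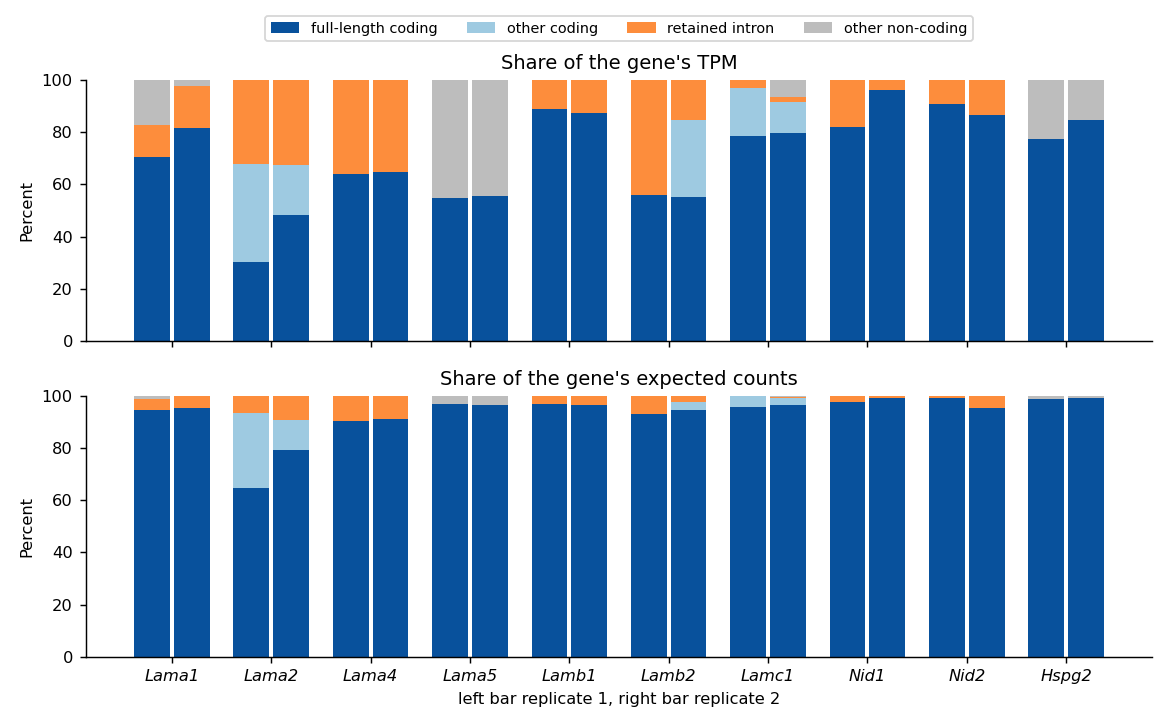
Percent of each gene's TPM (top) and of its expected counts (bottom) by transcript class, with replicate 1 as the left and replicate 2 as the right bar of each pair. Full-length coding transcripts hold a median of 96.1% and 95.7% of counts but 73.9% and 80.6% of TPM, and Lama2 is lowest by counts.

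Among the alpha chains, which carry the receptor-binding end, Lama4 was the highest in both libraries. Lama4 encodes the alpha4 chain, a short chain known from capillaries and other cells of mesodermal origin (chromosome 10, 38965515 to 39110188, mm10). Its level was 12.98 TPM in replicate 1, from 895 counts, and 28.5 TPM in replicate 2, from 3799 counts, a mean of 20.7 ± 11.0 TPM (SD, n = 2). On full-length transcripts it was at 8.29 and 18.5 TPM.

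Lama5 encodes the alpha5 chain, widespread in adult epithelial and vessel basement membranes (chromosome 2, 180176373 to 180225859). Its TPM was 7.98 in replicate 1 (836 counts) and 9.66 in replicate 2 (1978 counts), and 4.37 and 5.36 TPM on full-length transcripts. Lama2, the alpha2 chain gene known from muscle and Schwann cells (chromosome 10, 26980036 to 27619758), had 5.39 TPM (396 counts) and 7.0 TPM (1274 counts). On full-length transcripts Lama2 took the lowest place of the 10, at 1.64 and 3.37 TPM. Lama1, the alpha1 chain gene of early embryos and some epithelia (chromosome 17, 67697259 to 67822647), had 3.94 TPM (452 counts) and 4.64 TPM (1178 counts), with 2.77 and 3.78 TPM on full-length transcripts. Lama1 was thus the lowest by gene TPM and Lama2 the lowest by full-length TPM, in both libraries.

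Of the TPM summed over the alpha chain members, Lama4 held 42.9% in replicate 1 and 57.2% in replicate 2. Lama5 held 26.3% and 19.4%, Lama2 17.8% and 14.1%, and Lama1 13.01% and 9.32%. With Lama3, which is not a member, added to the sum, Lama4 held 37.4% and 49.6% and Lama3 12.8% and 13.4%. On full-length transcripts Lama4 held 48.6% and 59.6%. The second quantification gave it 46.95% and 63.8% of alpha TPM. Lama4 therefore took the greatest part of alpha chain transcripts in each library on each of these scales, and its part was smaller in replicate 1.

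The beta chain genes were higher than any alpha chain gene. Lamb1 encodes the beta1 chain, found in most laminins (chromosome 12, 31265234 to 31329644), and Lamb2 the beta2 chain, known from nerve-muscle synapses, kidney glomeruli and vessels (chromosome 9, 108479736 to 108490530). Lamb1 had 29.1 TPM in replicate 1 (2483 counts) and 43.7 in replicate 2 (7078 counts), a mean of 36.4 ± 10.3 TPM (SD, n = 2). Lamb2 had 23.9 TPM (1302 counts) and 44.0 TPM (4457 counts), a mean of 34.0 ± 14.2 TPM. By gene TPM the pair was not told apart, since Lamb1 over Lamb2 was 1.22 in replicate 1 and 0.99 in replicate 2. On full-length transcripts Lamb1 was higher in both libraries, at 25.9 and 38.2 TPM against 13.4 and 24.3 TPM for Lamb2, a ratio of 1.94 and 1.58. The second quantification gave the same ratio of full-length transcripts as 1.93 and 1.58.

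Lamc1, the only gamma chain gene among the members, encodes the gamma1 chain that binds nidogen (chromosome 1, 153218922 to 153332786). Its level was 20.2 TPM in replicate 1, from 2044 counts, and 34.0 TPM in replicate 2, from 6632 counts, a mean of 27.1 ± 9.73 TPM (SD, n = 2). Full-length transcripts of Lamc1 were at 15.9 and 27.1 TPM. On coding TPM, Lamc1 was at 97.8 and 100.5.

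Since a laminin takes 1 chain of each class, the classes were summed in each library. Over gene TPM, alpha chains summed to 30.3 in replicate 1 and 49.8 in replicate 2, beta chains to 53.0 and 87.7, and the gamma chain to 20.2 and 34.0. Beta over alpha was 1.75 and 1.76, and gamma over alpha 0.67 and 0.68. On full-length transcripts alpha summed to 17.1 and 30.97 TPM, beta to 39.2 and 62.5, and gamma to 15.9 and 27.1. Beta over alpha was then 2.30 and 2.02, with a mean of 2.16 ± 0.20, and gamma over alpha 0.93 and 0.87, with a mean of 0.90 ± 0.04 (SD, n = 2 each). Beta chain transcripts, summed over 2 genes, thus exceeded both other classes in both libraries. Among the member genes, alpha and gamma lay close to each other on full-length transcripts. On that scale Lamb2 alone, at 13.4 and 24.3 TPM, was below Lamc1 in both libraries, and Lamb1 was above it. The second quantification of full-length transcripts gave beta over alpha as 2.19 and 1.93 and gamma over alpha as 0.92 and 0.85. Over all its transcripts it gave 2.78 and 1.98 for beta over alpha, and 0.98 and 0.67 for gamma over alpha. RNA levels give no measure of the chains made or secreted.

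**Figure D3:**
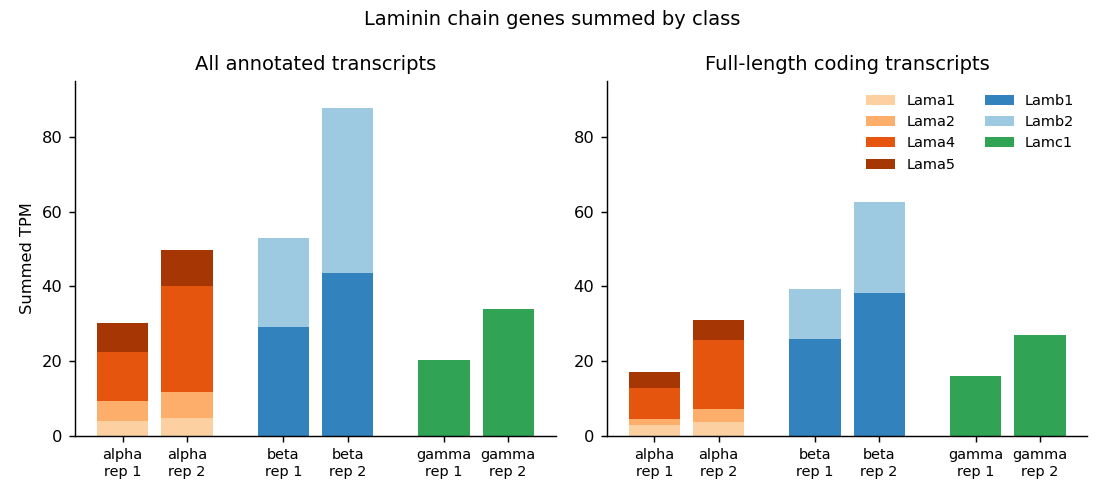
Summed TPM of alpha, beta and gamma chain genes in replicate 1 and replicate 2 (rep 1, rep 2), stacked by gene, over all annotated transcripts (left) and full-length coding transcripts (right). The beta bars are the tallest in both libraries, and on the right the alpha bars (17.1 and 30.97 TPM) and gamma bars (15.9 and 27.1 TPM) are close.

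Nid1 was the higher nidogen gene in both libraries. Nid1 (chromosome 13, 13437551 to 13512269) encodes nidogen-1, and Nid2 (chromosome 14, 19751265 to 19811787) its relative nidogen-2. Nid1 had 16.3 TPM in replicate 1 (1339.71 counts) and 24.2 in replicate 2 (4416.22 counts), a mean of 20.2 ± 5.61 TPM (SD, n = 2). Nid2 had 4.94 TPM (345 counts) and 9.02 TPM (1234 counts), a mean of 6.98 ± 2.89 TPM. Nid1 over Nid2 was 3.29 and 2.68 by gene TPM and 2.96 and 2.97 on full-length transcripts. The nidogens together were 1.05 and 0.98 times Lamc1 by gene TPM, and 1.122 and 1.15 times on full-length transcripts. In the second quantification they were 0.81 and 1.15 times Lamc1 over all transcripts, and 1.11 and 1.13 times on full-length transcripts. Nidogen transcripts thus lay above or below gamma1 depending on the library and scale, at 0.81 to 1.15 times.

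Hspg2, the perlecan gene (chromosome 4, 137468769 to 137570630), led in both libraries by gene TPM, while the second quantification put Lamb2 at 39.9 TPM above Hspg2 at 38.0 TPM in replicate 1. In the first tables Hspg2 had 41.5 TPM in replicate 1 (7530 counts) and 58.3 in replicate 2 (22030 counts), a mean of 49.9 ± 11.9 TPM (SD, n = 2). On full-length transcripts it was at 32.2 and 49.3 TPM, 2.03 and 1.82 times Lamc1. The remainder lay on Hspg2-202, a processed transcript of 820 bases, which took 109.96 and 203.81 counts and 22.4% and 15.4% of TPM. The second quantification gave Hspg2-202 0% in both libraries.

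Reads of the members could seldom be shared with other genes. No pair of members shared a run of 31 or more bases in their annotated transcripts, and 5 of the 10 shared none with any gene. Lama5 shared 32 bases with Lama3. The longest shared run, 155 bases, was between Nid1 and Gm2399, a gene at 4.02 and 19.1 TPM. In the authors' tables the posterior SD of the count was 2.09 and 4.4 reads for Nid1 and 0 for the other 9 genes. The Nid2 gene overlaps Rtraf on the opposite strand, and the kit is directional per the labels.

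Between the libraries the members lay about as close after scaling as all genes did. None of 10 was 2-fold or more apart, and 1.32% of the 11542 genes whose counts averaged 100 or more were. At so small a share, 0 of 10 does not set the members apart. The median absolute log2 ratio was 0.14 for the members and 0.16 for all genes. An exact binomial test, Benjamini-Hochberg adjusted over all genes, which sets these 2 libraries against counting error only, called 5 of 10 members. It called 33.5% of all genes, so counting error was exceeded widely at this depth. Higher in replicate 1 were 4 members, against 15.9% of all genes, and 1 was lower, against 17.6%.

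Lama5 had the highest ratio, a log2 of 0.44 (95% counting interval 0.32 to 0.56, adjusted p = 8.25e-12 in the binomial test). Lama4 had the lowest, -0.40 (-0.51 to -0.30, adjusted p = 3.32e-13 in the same test). Lama1 followed Lama5 at 0.30 (adjusted p = 0.00112 in the binomial test), and Lamb1 and Hspg2 were at 0.17 and 0.13. These 4 were below 0 when counts were scaled by library totals, a scale that moved the median of all genes to -0.91. With spike-in scaling that median was -0.16, and the test called 46.4% of all genes. The calls of Lama1, Lamb1 and Hspg2 ended on that scale, at 0.17, 0.04 and 0.0054. Lamb2, Lamc1, Nid1 and Nid2 were then called lower, while Lama5 and Lama4 were called in the same directions as before, at 0.31 and -0.53. Lamb2, Lamc1, Nid1, Nid2 and Lama2 were at -0.09, -0.01, -0.04, -0.15 and -0.00 and did not pass the test. Lama4 over Lama5 was accordingly 1.63 in replicate 1 and 2.95 in replicate 2 by gene TPM, and 1.90 and 3.44 on full-length transcripts. These chain genes were singled out after their values were seen, so the difference between them is a description.

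**Figure D4:**
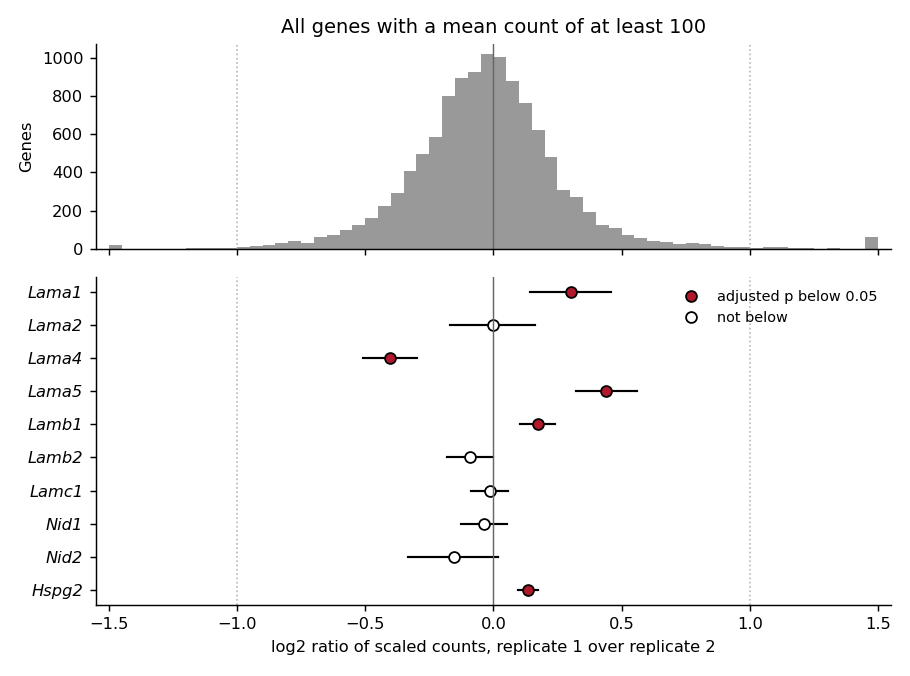
Distribution of the log2 ratio of scaled counts, replicate 1 over replicate 2, for all 11542 genes (top, values beyond the axis in the end bins) and the ratio of each member with its 95% counting interval (bottom). Lama4 at -0.40 and Lama5 at 0.44 lie on opposite sides of 0, and dotted lines mark 2-fold.

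The levels of cell type markers are given beside these ratios, and their part in the ratios was not tested. The 9 endothelium markers were each at 1 TPM or more in both libraries and summed to 738 coding TPM in replicate 1 and 827 in replicate 2. Their median log2 ratio was -0.13. The 9 mural cell markers summed to 189.6 and 210.7 coding TPM, with 8 detected and a median ratio of 0.01. In the capsule and fibroblast list 8 of 10 were detected, the sums were 658 and 489 coding TPM, and the median ratio was 0.26. Of the 7 Schwann cell markers 3 were detected, with sums of 32.4 and 36.2 coding TPM, a median ratio of -0.25 over the 3 tested, and Ncmap at 0 counts in replicate 1. Of 7 liver markers 1 was detected in both libraries, and the sums were 987 and 11.3 coding TPM, with Gc at 0 counts in replicate 2. Among adipocyte markers 4 of 5 were detected, the sums were 2570 and 2156 coding TPM, and the median ratio was 0.32. Of these markers 4 had ratios above 0, and Lep was at -1.87, with 17 counts in replicate 1 and 203 in replicate 2. The 5 immune markers summed to 70.8 and 69.4 coding TPM, with 4 detected. Muscle markers summed to 17.5 and 14.75 coding TPM, with Ckm at 0 counts in replicate 2, and 1 of 5 was detected. Kidney markers summed to 1.499 and 0.975 coding TPM, and 0 of 5 were detected. Slc34a1 had 0 counts in both libraries.

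Beyond the members, 65 other basement membrane genes in 6 lists were examined, and 50 of them were at 1 TPM or more in both libraries. Between the libraries 0 of the 56 tested were 2-fold apart, against 1.32% of all genes. Their median absolute log2 ratio was 0.14, near the 0.16 of all genes. The binomial test called 23 of the 56, against 33.5% of all genes, with 9 higher and 14 lower in replicate 1, against 15.9% and 17.6%.

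Of the other laminin chains, Lama3 had 4.46 TPM in replicate 1 and 7.68 in replicate 2, Lamc3 had 2.68 and 5.24, and the laminin-related netrin gene Ntn4 had 2.69 and 4.35. Lama3 encodes the alpha3 chain and Lamb3 the beta3 chain, known from the basement membrane of skin. Lamb3 was under 1 TPM, at 0.49 and 0.25 TPM (9 and 25 counts). By gene TPM, the range of Lama3 overlapped those of Lama1 and Lama2. With Lama3 and Lamb3 added to the sums, beta over alpha was 1.54 and 1.53. Over all laminin chain genes, gamma over alpha was 0.66 and 0.68 by gene TPM.

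Among the collagens that accompany laminins, Col4a1 and Col4a2, which form the common collagen IV network, stood at 86.4 and 50.3 TPM in replicate 1, and at 126.8 and 70.6 TPM in replicate 2, above every laminin chain gene in each library. Col15a1 followed at 8.12 and 11.9 TPM. Of the genes for the collagen IV network of kidney glomeruli, Col4a3 was at 0.35 and 0.97 TPM and Col4a4 at 0.76 and 1.52 TPM. Col4a5, of the same network and named after its values were seen, was higher at 6.17 and 10.4 TPM, and Col4a6 was at 0.89 and 2.11 TPM. The binomial test called 5 of 8, against 33.5% of all genes, with Col4a1, Col4a2 and Col18a1 higher in replicate 1 by log2 values of 0.11 to 0.19, and Col4a3 and Col4a6 lower, at -0.71 and -0.42.

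The list of linkers and small proteins was led by Sparc, a collagen-binding matricellular protein, at 726 TPM (replicate 1) and 1279 TPM (replicate 2), followed by the endothelial gene Egfl7 at 33.3 and 69.55 TPM and Smoc1, a Sparc relative, at 27.7 and 49.98 TPM. The hemicentin and Fras1 complex genes were low, with Hmcn1 at 0.38 and 0.87 TPM, Hmcn2 at 0.40 and 0.25, Frem1 at 0.20 and 0.52, Fras1 at 0.45 and 1.14, and Frem2 the lowest at 0.12 and 0.05. Of 14 members 9 were detected, and 5 of 11 tested were called, against 33.5% of all genes, Tinagl1 higher in replicate 1 at 0.57 and Egfl7, Agrn, Smoc1 and Sparc lower, at -0.42, -0.34, -0.11 and -0.07.

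Laminin receptors were present. Itgb1, the beta1 integrin shared by most laminin receptors, had 63.0 TPM in replicate 1 and 94.2 in replicate 2, its partner Itga6 had 34.9 and 59.0, and Dag1, dystroglycan, had 26.6 and 48.2. The collagen-binding integrin gene Itga2 was lowest at 0.42 and 0.54 TPM, and Itgb4, the hemidesmosome integrin, was at 0.87 and 0.65 TPM. Of 11 receptor genes 9 were detected. The test called 1 of 9, against 33.5% of all genes, and this was Itga3, at -0.19.

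Genes of chain assembly and modification were the most completely detected, at 20 of 21, led by the protein disulfide isomerase gene P4hb at 102 and 134 TPM, the collagen chaperone Serpinh1 at 83.2 and 104.9, and the lysyl hydroxylase Plod2 at 58.4 and 72.8. The lowest was Xylt1, which starts the sugar chains of proteoglycans such as perlecan, at 0.78 and 1.81 TPM. The binomial test called 11 of 21, against 33.5% of all genes. Higher in replicate 1 were P4ha1 (0.96), Serpinh1 (0.41), Plod2 (0.39), Pomt1 (0.25) and Ext2 (0.15). The 6 lower ones included Xylt1 (-0.49), Xylt2 (-0.45), Hs2st1 (-0.28), Ndst1 (-0.21) and Pxdn (-0.11).

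Of 6 protease genes 4 were detected. Mmp14, a membrane-bound metalloprotease, had levels of 11.85 TPM in replicate 1 and 22.55 in replicate 2, and Bmp1, which trims matrix proteins, at 9.74 and 16.7. Mmp2 was at 3.54 and 5.54 TPM. The gelatinase gene Mmp9 was lowest at 0.07 and 0.14 TPM (3 and 11 counts), and the heparanase gene Hpse was at 0.20 and 0.10 TPM (10 and 9 counts). The binomial test called 1 of 4 tested, against 33.5% of all genes, and this was Mmp14, at -0.20.

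**Figure D5:**
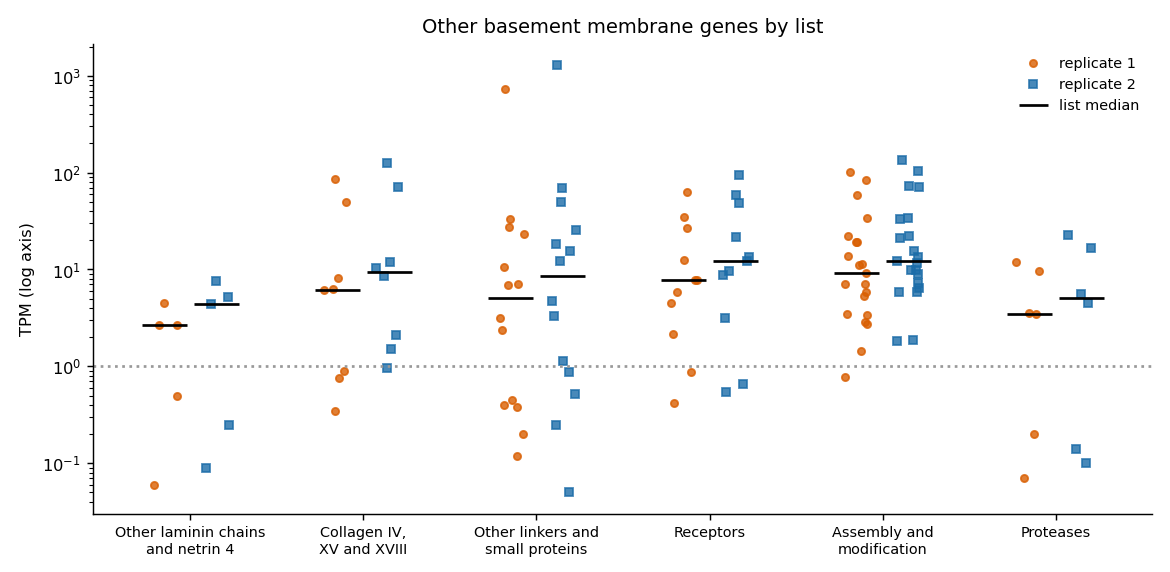
TPM on a log axis of the 65 other basement membrane genes by list, in replicate 1 (circles) and replicate 2 (squares), with list medians as bars and a dotted line at 1 TPM. Sparc stands alone at 726 and 1279 TPM, and Col4a1 leads the collagens at 86.4 and 126.8 TPM.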

How the data were processed

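Total RNA of adrenal glands from 25-day-old female B6CASTF1/J mice was sequenced in 2 libraries of 300 ng input, with a directional kit per the labels' protocols. Per the notes deposited beside the files, build mm10 with GENCODE M21 was used. Which quantifier ran, and its release, is not given in the sources used here. Deposited values were expected counts (estimated reads, not normalized), TPM (scaled to 1 total over all features) and, as the file headers name it, the percent that each transcript takes of its gene. A second deposited transcript table was summed per gene. The symbols were read from the transcript names in the deposited second transcript tables.

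Counts were rounded for TMM (edgeR 4.0.16, R 4.3.3), DESeq2 1.42.0 size factors and the tests. Log2 ratios are replicate 1 over replicate 2 with a prior of 1 count. The exact conditional binomial test (scipy 1.17.1, two-sided, Benjamini-Hochberg over 11542 genes, threshold 0.05) compares these libraries, not conditions; it and the exact Clopper-Pearson 95% intervals cover counting error only, since reads carry no molecular identifiers and may be copies of 1 molecule. The libraries form 1 group, so there was no comparison of groups for edgeR's quasi-likelihood test, and differences in level between genes are given with no test. The ratios and the binomial test were run on simulated counts with known folds and counting error only. That is the model the test assumes, so the run checks the calculation and not whether the model holds for these libraries. Members and lists were chosen with earlier results of these data known. The text names every member and, of each list, the highest 3, the lowest, each gene under 1 TPM in a library and each called gene, the last added after values were seen; a few list genes are counted but not reported here by name. Alternatives were other scalings, count minimums, a prior of 5 counts, the second quantification, coding TPM, full-length transcripts, and each library alone. Protein sequences were not used here. Figures were drawn with matplotlib 3.10.9 in Python 3.11.15.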

Additional observations from a re-analysis of the deposited data

How the results depend on the processing

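No paired analysis was possible because the samples form 1 group. Leaving out a library leaves 1 value and no test. Without replicate 1 and without replicate 2 the member median was 26.35 and 14.6 TPM, beta over alpha 1.76 and 1.75, gamma over alpha 0.68 and 0.67, and the median full-length share of TPM 80.6% and 73.9%.

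Scaling by total expected counts changed the ratios most, since it moved the median log2 ratio of all genes to -0.91, against -0.03 under TMM. On that scale 2 members (Lama4 and Nid2), 17 partner genes and 4083 genes in all (35.4% of those tested) were 2-fold apart. The binomial test called 10 members there, against 98.4% of all genes. The called ratios of Lama1, Lama5, Lamb1 and Hspg2 turned to -0.58, -0.44, -0.71 and -0.75. On the log2(TPM + 1) scale 1 member, Lama4, was 2-fold apart. The same 5 members were called under DESeq2 size factors (33.7% of all genes), a minimum of 10 counts (25.5%) and no minimum (6.24%). The second quantification called them and Lamb2, against 35.5% of all genes. Spike-in scaling called 6, against 46.4% of all genes, and 2 of the 6 were shared with TMM. It ended 3 calls (Lama1, Lamb1 and Hspg2) and added 4, and the split was 1 higher and 5 lower in replicate 1, against 4 and 1. Apart from total counts and log2(TPM + 1), 0 members were 2-fold apart under the alternatives run, a prior of 5 counts included. With a minimum of 10 counts 938 genes in all were 2-fold apart, and with no minimum 5012.

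The coding TPM scale put the member median at 74.3. Mean beta over alpha was 2.38 in the second quantification, with 2.78 in replicate 1 and 1.98 in replicate 2. It was 1.53 with all laminin chain genes, 2.16 on full-length transcripts and 2.06 on full-length transcripts of the second quantification. Mean gamma over alpha was 0.83 in the second quantification, with 0.98 in replicate 1 and 0.67 in replicate 2. On full-length transcripts of the first and second it was 0.90 and 0.89. Both ratios thus differed more between the libraries in the second quantification than by gene TPM. The second transcript table gave a median full-length share of 87.0%. Restriction to full-length transcripts was chosen after seeing the data. Detection of partner genes was 50 of 65, 53 in the second quantification and 54 at a threshold of 0.5 TPM. Depth limits the genes with few counts most, and 3 to 25 counts stood behind Lamb3, Mmp9 and Hpse. Some other genes under 1 TPM in a library had more, such as Fras1 with 117 counts in replicate 1 and 363 in replicate 2.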
